A study of Leucoraja erinaceus with 6 samples.

Results

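Tubulins and microtubule-associated proteins were followed in dorsal root ganglia (DRG) and spinal cord of little skate (Leucoraja erinacea) embryos. The members were all rows of the count table whose gene symbol began with the stem of a tubulin, a tubulin folding cofactor, a microtubule-associated protein (MAP), a stathmin, a doublecortin-type kinase, a microtubule end-binding protein, a tubulin tail enzyme or a severing enzyme. This rule took 59 of 22087 named rows. Of these, 52 were grouped as tubulin or microtubule genes. The other 7 were set apart in a group drawn as matched by spelling. They were map1lc3b, which has a MAP symbol and whose product marks autophagosomes, the kinases map2k1, map2k5, map2k7, map4k3a and map4k5, and dcxr. A single beta tubulin row (tubb5) and a single stathmin row (stmn2b) carried a matching symbol. No row carried an alpha tubulin symbol or the plain doublecortin symbol dcx. The set thus has no alpha tubulin row and is not the skate's whole tubulin family. Of the named rows, 12253 carry an identifier without a gene symbol, and other tubulins may be among them. The study measured bulk RNA from the 2 tissues, with 3 libraries of each and no treatment. Every library came from wild-type embryos at stage 32 and pooled the tissue of 3 to 4 embryos, with pools 815, 816 and 818 giving replicates 1, 2 and 3 of both tissues, and the labels describe both tissues as a mixture of neurons and glia.

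Microtubules are hollow polymers of alpha and beta tubulin dimers. Dedicated cofactors fold and assemble the dimers, gamma tubulin rings start new polymers, and MAPs bundle, stabilise or destabilise them. In neurons they fill axons and dendrites, carry motor-driven transport and are marked by enzymes that add or remove amino acids on the tubulin tails. DRG sensory neurons send out an axon that branches to the periphery and to the spinal cord, whereas most neurons of the spinal cord itself have an axon and dendrites.

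The tissue labels were checked against marker genes. All 8 measured sensory neuron markers were higher in DRG, with a summed level of 944 to 1180 CPM in DRG libraries against 205 to 220 CPM in spinal cord libraries. CPM are counts scaled to library size and to TMM factors (trimmed mean of M-values), which centre the bulk of genes near no change. All 8 measured spinal neuron markers were lower in DRG, at 4.63 to 8.86 CPM in DRG, against 637 to 699 CPM in spinal cord, and evx1 had 0 counts in every DRG library. Other cells also differed: connective tissue markers summed to 1420 to 3460 CPM in DRG, against 100 to 134 CPM in spinal cord, with 4 of 4 higher in DRG. Glia and myelin markers summed to 5800 to 10300 CPM in DRG, against 35800 to 44300 CPM in spinal cord, with 3 of 7 higher and 4 of 7 lower. The part of these cell types in the results below was not tested, and in bulk tissue fewer cells of a type and less RNA per cell cannot be told apart. Libraries held 25963856 to 26542044 counts in named genes in DRG and 24342810 to 28782887 in spinal cord, and genes of the mitochondrial genome took 24.3% to 35.7% of them in DRG and 5.39% to 6.88% in spinal cord. The labels call the libraries of a tissue biological replicates, and p-values measure the spread between pools.

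The design allows 1 comparison, DRG against spinal cord, made here for each member. All 59 members passed the filter on low counts. With edgeR's quasi-likelihood test and a Benjamini-Hochberg threshold of 0.05 over 16112 genes, 20 members were higher in DRG, 12 were lower and 27 did not pass. Among all genes tested 27.8% were higher and 28.1% were lower, against 33.9% and 20.3% of the members, and 55.9% of all genes and 32 of the 59 members were called in either direction. The members' total share of calls was thus near the background. Fold changes are given as log2 of DRG over spinal cord. Their median was 0.20 for the members and -0.04 for all genes tested. With a fold of at least 2 in addition, 12 members were higher (19.2% of all genes tested) and 7 were lower (19.8% of all genes tested). The libraries of the tissues did not overlap for 41 members, against 65.0% of all genes, with 22 of them higher (30.8% of all genes) and 19 lower (34.1% of all genes).

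**Figure D1:**
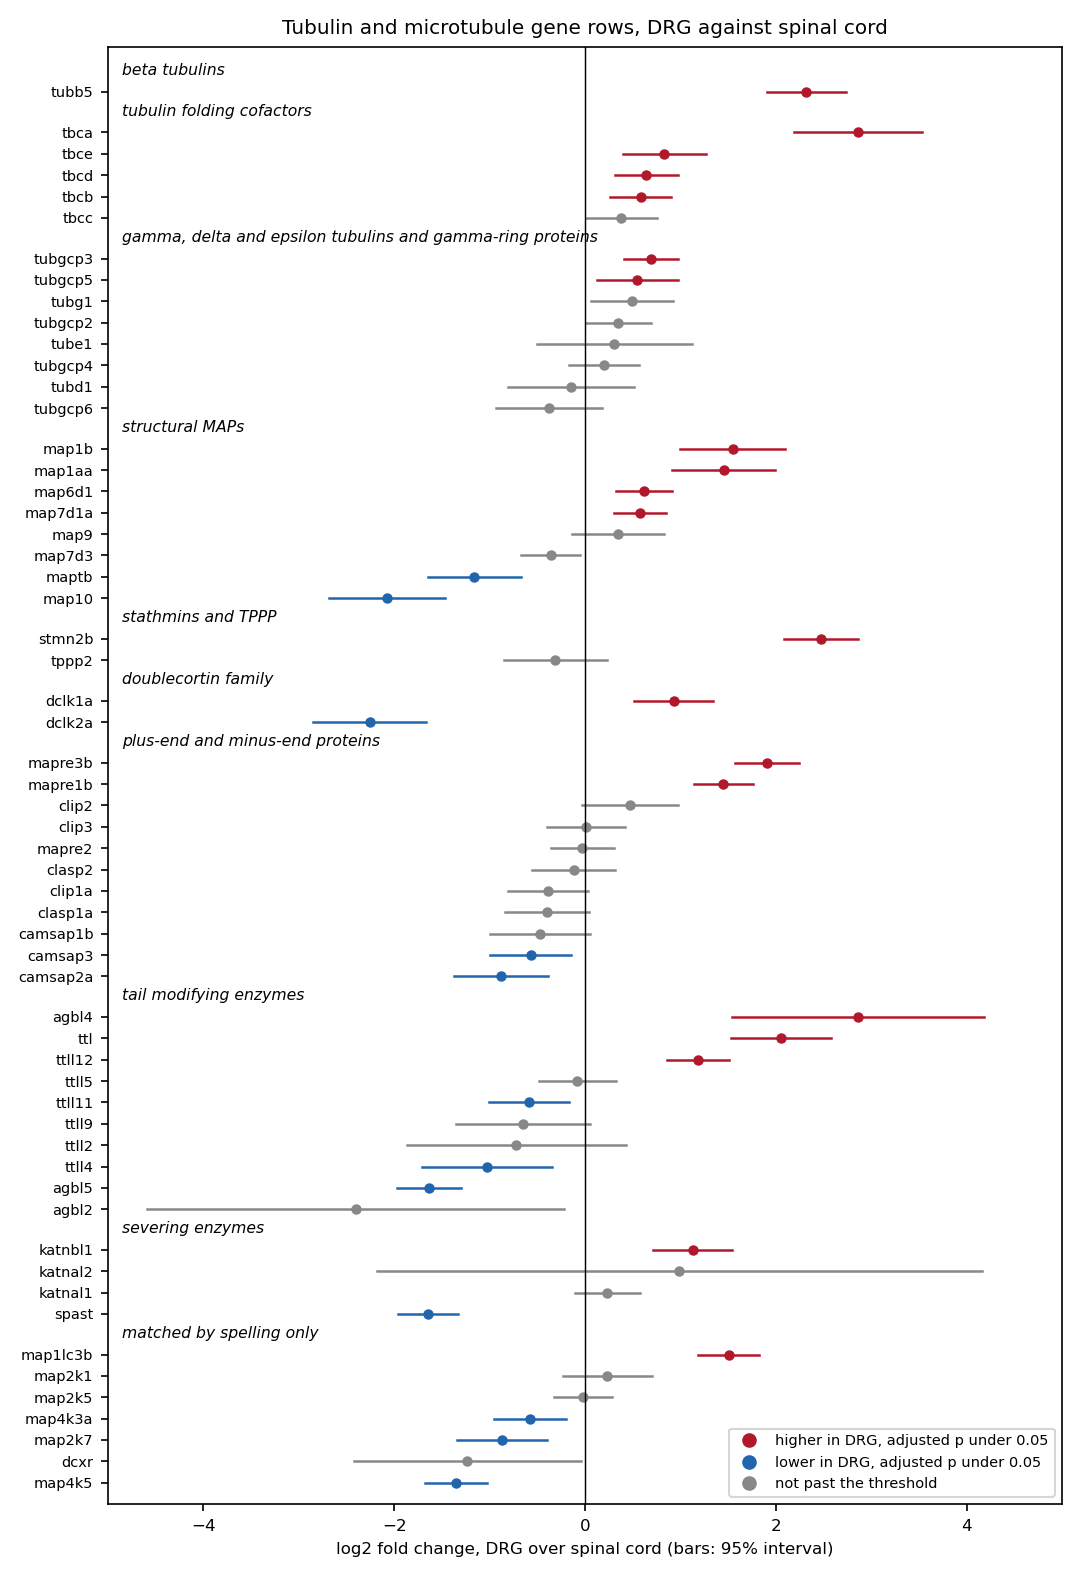
Log2 fold change of 58 of the 59 rows, DRG over spinal cord on the TMM scale, with 95% intervals of the fit to 3 libraries per tissue. Rows are grouped by role; red rows are higher in DRG, blue rows lower, and grey rows did not pass the threshold. The range runs from -2.40 for agbl2, which did not pass, to 2.87 for tbca.

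The smaller changes depended in direction on how libraries were scaled. Scaled by library size only, without TMM factors, the median of all genes tested was -0.99, and 8 members were higher in DRG and 34 were lower (19.0% of the called members higher, against 62.5% with TMM). Of the 16112 genes tested, 1692 were higher and 9190 were lower on that scale (15.5% of calls higher, against 49.7% with TMM). The 8 members higher were tubb5, tbca, stmn2b, mapre3b, mapre1b, ttl, agbl4 and map1lc3b, with log2 fold changes of 0.49 to 1.87 on that scale. Of the other 12 members called higher with TMM, 5 kept the sign without passing (map1b, map1aa, dclk1a, katnbl1 and ttll12) and 7 changed sign (tbce, tbcd, tbcb, tubgcp3, tubgcp5, map6d1 and map7d1a). All 12 members called lower stayed lower and past the threshold. Fold changes below are on the TMM scale.

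**Figure D2:**
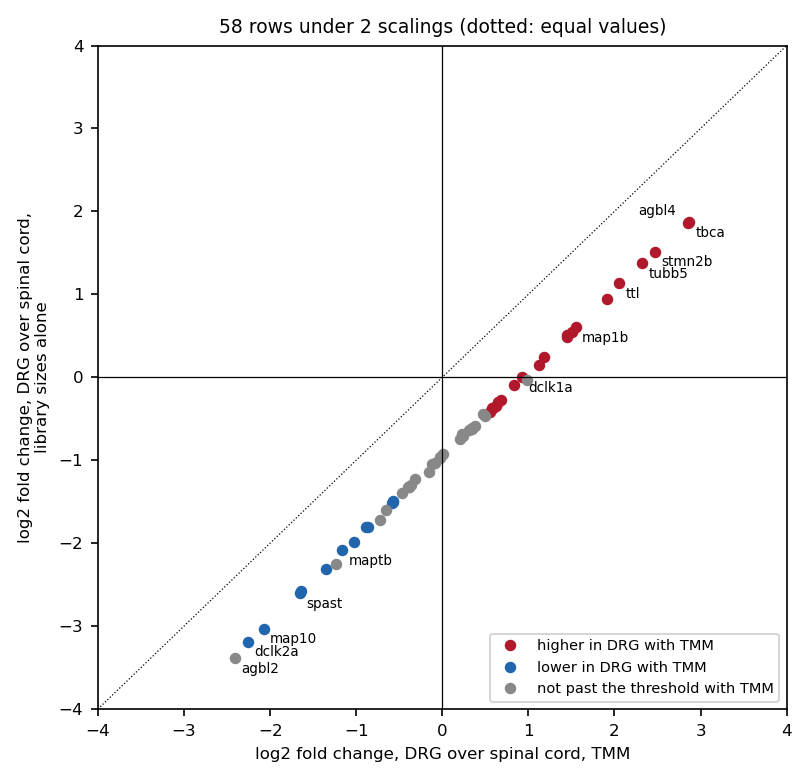
Log2 fold change of 58 of the 59 rows with TMM (x axis) and with library sizes alone (y axis), each dot 1 row coloured by its TMM call. Every dot lies below the dotted line of equal values, and 20 red dots on the right of 0 become 8 calls above 0 on the y axis (0.49 to 1.87).

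The beta tubulin tubb5, which carries a name used for a broadly expressed beta isotype in mammals, had 278, 211 and 275 CPM in DRG replicates 1, 2 and 3, against 46.0, 60.1 and 46.9 CPM in spinal cord replicates 1, 2 and 3. Every DRG library was above every spinal cord library, and the log2 fold change was 2.32 ± 0.18 SE (adjusted p = 3.3e-05), a fold of 5.00. Without TMM factors, scaled to all counts in named genes, tubb5 had 185 ± 45.3 CPM in DRG, against 71.1 ± 10.8 CPM in spinal cord (n = 3 per tissue, SD). Near-identical tubulin genes can share reads, and the treatment of such reads in counting is not given in the sources used here, so the tubb5 level is uncertain to that extent.

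The 5 tubulin folding cofactors, which capture newly made alpha and beta tubulin and join them into dimers, had a median log2 fold change of 0.64. In DRG 4 were higher (27.8% of all genes tested were) and 0 were lower (28.1%). The other had 0.38 and an adjusted p of 0.0716. The largest change was that of tbca, which binds beta tubulin. Its levels were 590, 667 and 318 CPM in DRG, against 83.6, 62.4 and 70.2 CPM in spinal cord replicates 1, 2 and 3. The DRG libraries were all higher but spread widely, with replicate 3 lowest, and the log2 fold change was 2.87 ± 0.29 SE (adjusted p = 0.000109). DRG replicate 3 also had the lowest mitochondrial share of the DRG libraries (24.3%, against 33.7% and 35.7% in replicates 1 and 2) and the lowest connective tissue sum (1420 CPM); their part in the tbca spread was not tested. Of the other cofactors, tbce, which acts on alpha tubulin, averaged 137 ± 28.5 CPM in DRG, against 77.1 ± 10.9 CPM in spinal cord, and tbcb, an alpha tubulin cofactor, 388 ± 23.1 CPM in DRG, against 258 ± 23.3 CPM in spinal cord (n = 3 per tissue, SD). The beta tubulin cofactor tbcd had 189, 171 and 204 CPM in DRG, against 133, 107 and 120 CPM in spinal cord. For tbce, tbcd and tbcb the log2 fold changes were 0.83, 0.64 and 0.58 (adjusted p = 0.0063, 0.00548 and 0.00758), and all 3 changed sign with library sizes alone. The remaining cofactor, tbcc, which releases the finished dimer, had 53.5 ± 8.53 CPM in DRG, against 41.0 ± 3.58 CPM in spinal cord, and 1 DRG library lay within the spinal cord range. Without DRG replicate 3 its log2 fold change was 0.50 (adjusted p = 0.0124). With library sizes alone tbcc passed as lower in DRG (-0.59, adjusted p = 0.0104).

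Gamma, delta and epsilon tubulin and the gamma-ring proteins, which start new microtubules or build centrioles, had 8 rows. Of these, 2 were higher in DRG (27.8% of all genes tested were), 0 were lower (28.1%) and 6 did not pass (median 0.33). The gamma-ring subunit tubgcp3 had 42.6, 46.4 and 41.0 CPM in DRG, against 27.8, 26.3 and 26.7 CPM in spinal cord, without overlap (log2 fold change 0.69 ± 0.12 SE, adjusted p = 0.00188), but -0.27 with library sizes alone. The call of tubgcp5, another ring subunit, was weak: 14.8 ± 2.23 CPM in DRG against 10.1 ± 0.771 CPM in spinal cord (n = 3 per tissue, SD; log2 fold change 0.55 ± 0.18 SE, adjusted p = 0.0333). It turned negative with library sizes alone (-0.42), and the call was lost with the pool number as a replicate block (0.54, adjusted p = 0.0652) and whenever 1 library other than DRG replicate 3 was dropped (adjusted p = 0.0597 to 0.125). Gamma tubulin itself, tubg1, had 84.9, 105 and 94.1 CPM in DRG, against 58.5, 57.7 and 85.6 CPM in spinal cord; spinal cord replicate 3 lay above DRG replicate 1, and the log2 fold change of 0.49 did not pass (95% interval 0.06 to 0.93, adjusted p = 0.0531). Without spinal cord replicate 3 it was 0.70 (adjusted p = 0.0162). Delta and epsilon tubulin, which build centriole triplets, had log2 fold changes of -0.15 (tubd1, 95% interval -0.81 to 0.51) and 0.31 (tube1, -0.51 to 1.13), and tubd1 changed sign without DRG replicate 3 or spinal cord replicate 3 (0.05 and 0.001). The ring subunits tubgcp2, tubgcp4 and tubgcp6 lay between -0.38 and 0.35 and did not pass. Without DRG replicate 3, tubgcp2 passed as higher (0.44, adjusted p = 0.0262). With library sizes alone all of them passed as lower: tubgcp2 -0.62, tubgcp4 -0.74 and tubgcp6 -1.33 (adjusted p = 0.00896, 0.0166 and 0.00265).

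The structural MAPs, which bind along the polymer, went in both directions. In DRG 4 of 8 were higher (27.8% of all genes tested were), 2 were lower (28.1%) and 2 did not pass (median 0.46). The axonal MAP map1b had 4305, 2375 and 3701 CPM in DRG replicates 1, 2 and 3, against 1171, 1197 and 1180 CPM in spinal cord. Its relative map1aa, named after the MAP1A of adult axons and dendrites in mammals, had 3417, 2091 and 3361 CPM in DRG, against 967, 1216 and 1058 CPM in spinal cord. Both were higher in every DRG library, with DRG replicate 2 the lowest of the 3, and their log2 fold changes were 1.55 ± 0.24 SE and 1.45 ± 0.23 SE (adjusted p = 0.000868 and 0.00108). With library sizes alone they were 0.60 and 0.52 (adjusted p = 0.0593 and 0.107).

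Tau went the other way. The tau gene row maptb, whose product binds axonal microtubules, had 576, 406 and 688 CPM in DRG, against 1282, 1302 and 1145 CPM in spinal cord replicates 1, 2 and 3. No DRG library reached the lowest spinal cord library, and the log2 fold change was -1.16 ± 0.21 SE (adjusted p = 0.00222), or -2.08 with library sizes alone. The other MAP that fell in DRG was map10, at 1.49, 1.70 and 1.49 CPM in DRG, against 6.21, 6.36 and 7.14 CPM in spinal cord (log2 fold change -2.07 ± 0.26 SE, adjusted p = 0.000333). A pair of smaller differences were higher in DRG: map6d1, a relative of the cold-stabilising MAP6, averaged 102 ± 9.13 CPM in DRG, against 66.5 ± 1.15 CPM in spinal cord, and map7d1a, of the MAP7 family that recruits kinesin-1, averaged 105 ± 5.87 CPM in DRG, against 70.3 ± 1.84 CPM in spinal cord (n = 3 per tissue, SD). Their log2 fold changes were 0.62 and 0.58 (adjusted p = 0.0037 and 0.00402), and -0.35 and -0.37 with library sizes alone. Of the MAPs that did not pass, map9 had 8.33 to 11.0 CPM in DRG, against 6.72 to 7.68 CPM in spinal cord, and map7d3 averaged 41.9 ± 4.75 CPM in DRG, against 53.7 ± 2.11 CPM in spinal cord (log2 fold changes 0.35 and -0.36). The libraries of the tissues did not overlap for either. The adjusted p of map7d3 was 0.0513, and it passed with DESeq2 (0.0331) and with limma voom (0.0486).

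Among tubulin-binding regulators, stmn2b was higher in DRG. It is named after stathmin 2, a neuronal protein of growing axons that binds tubulin dimers. Its levels were 3888, 4152 and 3665 CPM in DRG, against 756, 702 and 651 CPM in spinal cord. The spread within DRG was small beside the difference, and the log2 fold change was 2.47 ± 0.17 SE (adjusted p = 1.8e-05), a fold of 5.55. The tubulin polymerisation-promoting protein row tppp2 had 59.8, 46.0 and 89.7 CPM in DRG, against 83.1, 85.5 and 74.4 CPM in spinal cord, and DRG replicate 3 lay above all spinal cord libraries. Its log2 fold change was -0.31 (95% interval -0.85 to 0.23), or -0.63 without DRG replicate 3 (adjusted p = 0.0113).

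The doublecortin-like kinases, which bind microtubules through doublecortin domains, moved in opposite directions. The row dclk1a had 182, 143 and 224 CPM in DRG, against 99.5, 100 and 88.9 CPM in spinal cord (log2 fold change 0.93 ± 0.18 SE, adjusted p = 0.00289). With library sizes alone this was 0.002 (adjusted p = 0.994). The row dclk2a had 17.1, 8.44 and 16.1 CPM in DRG, against 65.2, 71.3 and 62.5 CPM in spinal cord (log2 fold change -2.25 ± 0.26 SE, adjusted p = 0.000192). Neither row's tissues overlapped. The span of dclk2a overlaps another gene in the RefSeq gene table, so part of its reads is uncertain.

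**Figure D3:**
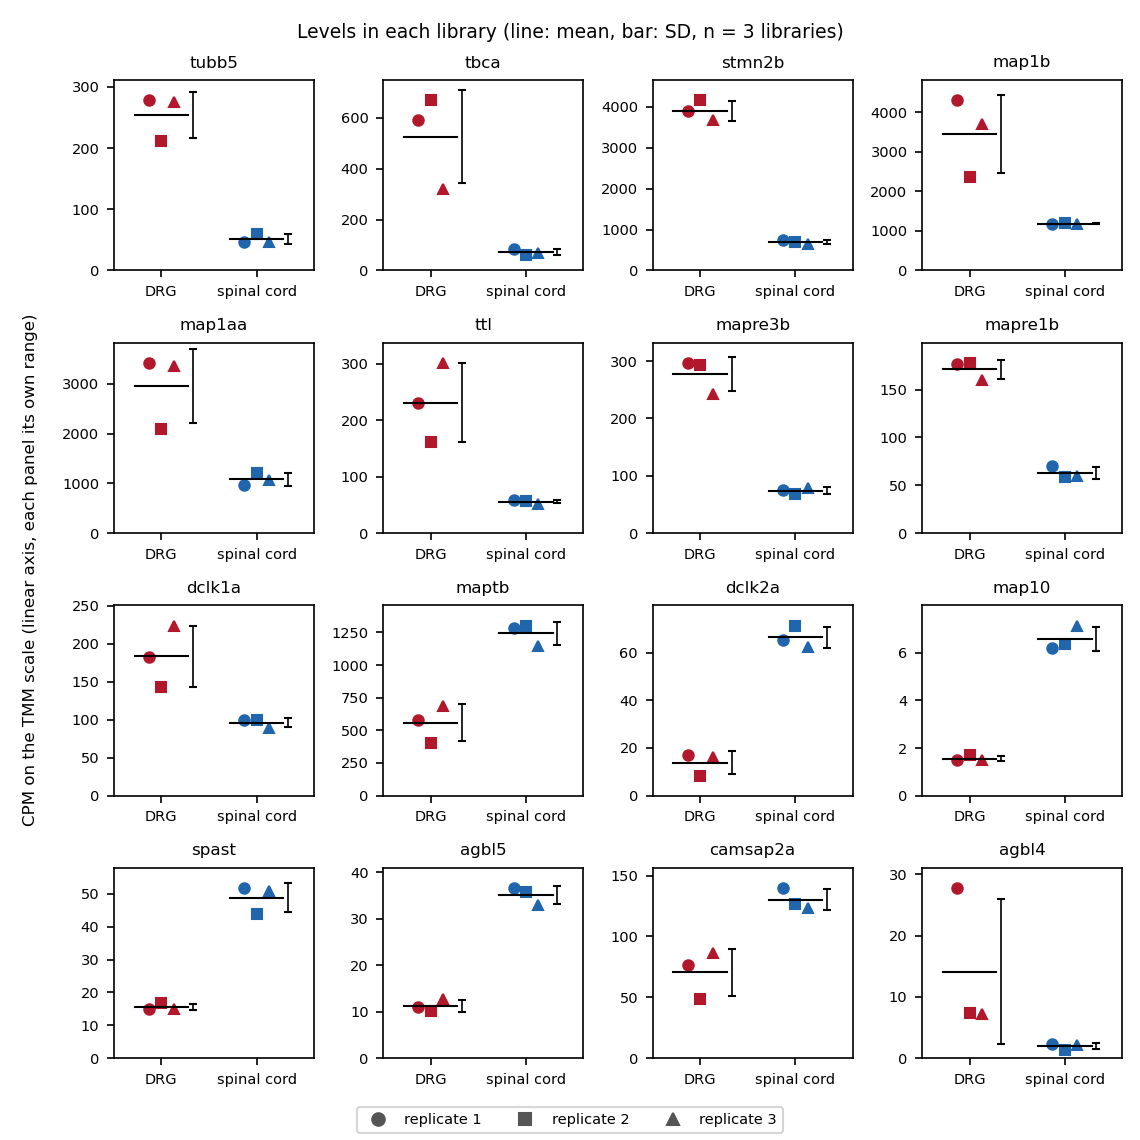
CPM on the TMM scale in each library for 16 members, DRG on the left and spinal cord on the right of each panel; symbols are replicates 1, 2 and 3, the line is the mean and the bar the SD (n = 3). The 16 are a selection from the 32 members that passed the threshold. Each of the 16 passed and had no overlap, so the tissues separate in every panel by choice. Of all 59 members, 22 were higher and 19 lower without overlap (30.8% and 34.1% of all genes tested). For example, stmn2b had 3665 to 4152 CPM in DRG against 651 to 756 CPM in spinal cord, while agbl4 is set apart by DRG replicate 1 (27.7 CPM).

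Proteins of microtubule ends had 11 rows (median -0.12). Of these, 2 were higher in DRG (27.8% of all genes tested were), 2 were lower (28.1%) and 7 did not pass. The end-binding proteins, which ride on growing plus ends and recruit other factors, were higher in DRG for 2 of 3 rows. For mapre3b the levels were 297, 293 and 243 CPM in DRG, against 75.8, 67.5 and 78.5 CPM in spinal cord (log2 fold change 1.91 ± 0.15 SE, adjusted p = 3.1e-05). For mapre1b they were 176, 178 and 160 CPM in DRG, against a mean of 62.8 ± 5.95 CPM in spinal cord (SD, n = 3; 1.45 ± 0.13 SE, adjusted p = 7.2e-05). The third row, mapre2, had overlapping libraries, at 205 ± 28.1 CPM in DRG, against 209 ± 6.86 CPM in spinal cord (n = 3 per tissue, SD), with a log2 fold change of -0.03 and a 95% interval of -0.36 to 0.31.

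Minus-end proteins of the CAMSAP family, which protect free minus ends in neurites, were lower in DRG for 2 of 3 rows. The row camsap2a had 76.6, 48.4 and 86.2 CPM in DRG, against 140, 127 and 123 CPM in spinal cord (log2 fold change -0.88 ± 0.21 SE, adjusted p = 0.00824). The call of camsap3 (-0.57 ± 0.18 SE, adjusted p = 0.0292) was lost when any library but DRG replicate 3 was left out (adjusted p = 0.0569 to 0.106). The third row, camsap1b, had -0.47 (adjusted p = 0.113) and passed without DRG replicate 3 (-0.64, adjusted p = 0.0493). None of the rows of the CLIP and CLASP families passed. Their log2 fold changes were 0.48 for clip2, 0.01 for clip3, -0.12 for clasp2, -0.39 for clip1a and -0.40 for clasp1a. Apart from clip3, these rows are named after proteins that link plus ends to the cell cortex or slow their shrinkage. Without DRG replicate 2, clip2 passed (0.64, adjusted p = 0.0223), and without DRG replicate 3, clasp1a passed (-0.60, adjusted p = 0.0138). The row clip1a had no overlap between tissues and passed with upper quartile factors (-0.45, adjusted p = 0.0486).

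The 10 rows of tubulin tail enzymes were split (median -0.62). In DRG 3 were higher (27.8% of all genes tested were), 3 were lower (28.1%) and 4 did not pass the threshold. Tubulin tyrosine ligase, ttl, which restores the last tyrosine of alpha tubulin, had 230, 161 and 301 CPM in DRG, against 58.1, 56.6 and 52.1 CPM in spinal cord. Every DRG library was higher (log2 fold change 2.05 ± 0.23 SE, adjusted p = 0.000164). The ligase-like row ttll12 had 51.0, 43.6 and 53.2 CPM in DRG, against 22.5, 22.9 and 19.7 CPM in spinal cord (1.18 ± 0.14 SE, adjusted p = 0.000238). The deglutamylase row agbl4 had 27.7, 7.45 and 7.14 CPM in DRG, against 2.27, 1.39 and 2.15 CPM in spinal cord. Its log2 fold change of 2.86 ± 0.57 SE (adjusted p = 0.00342) rested in size on DRG replicate 1, and without that library it was 1.90 ± 0.33 SE (adjusted p = 0.00375).

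In the other direction, agbl5, which removes branch-point glutamates in mammals, had 10.9, 10.1 and 12.7 CPM in DRG, against 36.6, 35.7 and 32.9 CPM in spinal cord (log2 fold change -1.64 ± 0.15 SE, adjusted p = 6.4e-05). The glutamylase row ttll4 had 18.1, 7.74 and 11.4 CPM in DRG, against 29.7, 21.6 and 24.6 CPM in spinal cord (-1.03 ± 0.30 SE, adjusted p = 0.0186), and the call was lost without spinal cord replicate 1 (adjusted p = 0.0704). A further glutamylase, ttll11, was lower by a log2 fold change of -0.58 (adjusted p = 0.0256), not past the threshold without spinal cord replicate 1 or 2 (adjusted p = 0.102 and 0.0719). The rows ttll2, ttll9 and agbl2 were low in both tissues, at no more than 2.53 CPM in any DRG library and 3.97 CPM in any spinal cord library, and did not pass. All 3 had no overlap between tissues and were on the lower side in DRG, with log2 fold changes of -0.72, -0.65 and -2.40. With a minimum of 10 counts per library, ttll9 passed (-0.73, adjusted p = 0.0485). For agbl2 the libraries held 3, 5 and 0 counts in DRG and 47, 11 and 34 in spinal cord, and the 95% interval was -4.59 to -0.22. Markers of motile cilia, whose axonemes carry modified tubulin, were lower in DRG for 4 of 4 genes, with sums of 4.87 to 13.7 CPM in DRG, against 21.2 to 29.8 CPM in spinal cord; their part in these low rows was not tested. The remaining row, ttll5, had -0.08 (95% interval -0.49 to 0.32).

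Of the 5 severing enzyme rows, spast and katnbl1 passed in opposite directions. Spastin, which cuts microtubules and is mutated in human hereditary spastic paraplegia, had 15.0, 16.7 and 15.1 CPM in DRG, against 51.7, 43.8 and 50.9 CPM in spinal cord (log2 fold change -1.65 ± 0.14 SE, adjusted p = 4.3e-05). The katanin-related row katnbl1 had 36.0, 38.5 and 27.3 CPM in DRG, against 17.5, 13.5 and 15.5 CPM in spinal cord (1.13 ± 0.18 SE, adjusted p = 0.00104). The catalytic-type row katnal1 had 0.24 (95% interval -0.10 to 0.57), and passed as higher without DRG replicate 2 (0.34, adjusted p = 0.0473). With library sizes alone it passed as lower (-0.71, adjusted p = 0.0136).

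The katanin-like row katnal2 was far higher in 1 pool than in the others, in both tissues. It had 15.7, 0.293 and 0.362 CPM in DRG, against 6.01, 1.04 and 1.13 CPM in spinal cord replicates 1, 2 and 3, so that replicate 1 (pool 815) was the highest library of both tissues. The reads behind these values numbered 274, 5 and 8 in DRG, against 236, 35 and 44 in spinal cord. Its log2 fold change was 0.99 with a 95% interval of -2.18 to 4.16 (adjusted p = 0.567). Without DRG replicate 1 it was -3.04 ± 1.00 SE (adjusted p = 0.0432), and with the replicate block -0.45 (adjusted p = 0.627). The RefSeq gene table places hdhd2 over part of its span, so some reads may belong there.

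Ratios of read counts within a library do not depend on the scaling between libraries. They compare a pair of genes across tissues, and their size also depends on transcript lengths. These pairs were chosen after their values were seen and carry no test. The ratio of maptb to map1b reads was 0.134, 0.171 and 0.186 in DRG, against 1.09, 1.09 and 0.970 in spinal cord replicates 1, 2 and 3. The ratio of maptb to map1aa reads was 0.168 to 0.205 in DRG and 1.07 to 1.32 in spinal cord. For map1aa to map1b the tissues overlapped, at 0.794 to 0.908 in DRG and 0.826 to 1.02 in spinal cord. Tau reads were fewer in DRG relative to both MAP1 rows. The ratio of dclk1a to dclk2a reads was 10.6 to 17.0 in DRG and 1.40 to 1.53 in spinal cord, that of mapre3b to mapre2 1.04 to 1.66 in DRG and 0.328 to 0.383 in spinal cord, and that of tbca to tbcd 1.56 to 3.90 in DRG and 0.581 to 0.626 in spinal cord.

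**Figure D4:**
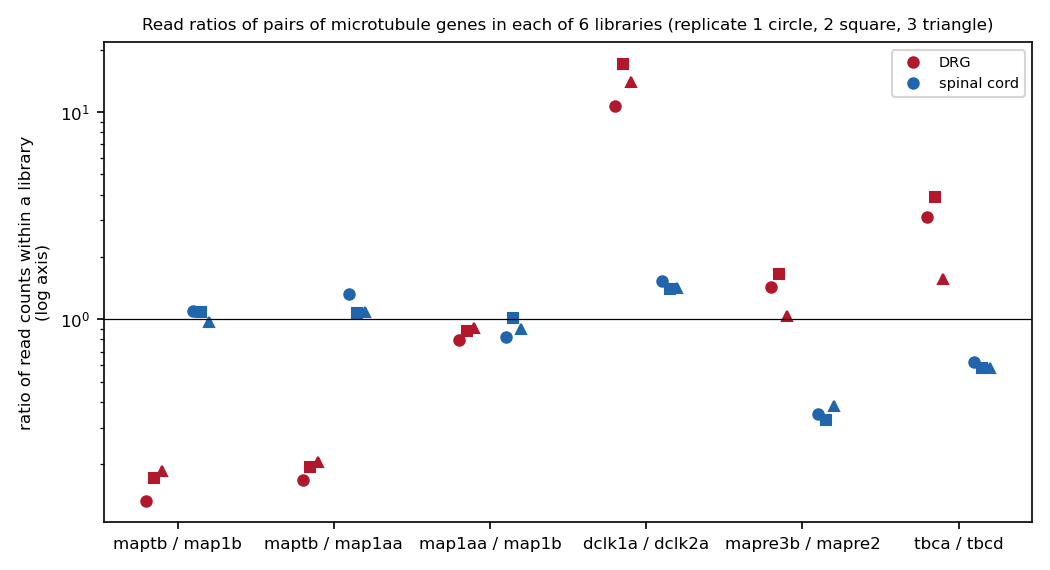
Ratio of read counts of 6 pairs of microtubule genes within each library, on a log axis, with DRG left of spinal cord for each pair and 3 libraries per tissue. The tissues separate for every pair except map1aa to map1b, where DRG (0.794 to 0.908) and spinal cord (0.826 to 1.02) overlap. The pairs were chosen after their values were seen.

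In summed counts, the 59 members held 1.17%, 0.906% and 1.39% of all counts in named genes in DRG replicates 1, 2 and 3 and 1.03%, 1.07% and 1.05% in spinal cord. The DRG range enclosed the spinal cord range. With 13 mitochondrially encoded genes left out of the total, the shares were 1.41% to 1.84% in DRG and 1.11% to 1.15% in spinal cord. The rows map1b, map1aa, stmn2b and maptb made up 65.4% to 69.6% of the members' counts in DRG and 55.1% to 57.1% in spinal cord.

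Within DRG, replicate 2 was often the lowest library. It was the lowest of the 3 for 36 of the 59 members (61.0%), against 36.2% of all genes tested. In spinal cord the lowest library was replicate 1, 2 and 3 for 17, 24 and 18 members. The median coefficient of variation of the members was 17.2% in DRG and 8.21% in spinal cord, and that of all genes tested was 24.3% in DRG and 12.7% in spinal cord. DRG replicate 2 also had the highest connective tissue sum (3460 CPM), the highest glia and myelin sum (10300 CPM) and the highest mitochondrial share (35.7%) of the DRG libraries. Its pan-neuronal sum was the highest as well (18320 CPM, against 16570 and 16890 CPM in replicates 1 and 3). The neural progenitor, proliferation, blood and immune, and muscle sums were also highest in DRG replicate 2, but single genes carried some of them. In that library fabp7b had 2963 CPM of the 2974 CPM neural progenitor sum. The blood and immune sum was highest through ptprc (67.0 CPM, against 11.7 and 13.5 CPM in replicates 1 and 3). The genes lmo2 and rhag were highest in replicate 1. Of the pan-neuronal genes, neflb and uchl1 were highest in DRG replicate 2, and elavl3, syt1a and gap43 were lowest. The sensory neuron sum of DRG replicate 2 was the lowest (943.7 CPM, against 1001 and 1176 CPM in replicates 1 and 3). Its largest gene, ntrk2a, had 354 CPM there, against 437 and 576 CPM. The genes isl1a, drgx and runx1 were also lowest in replicate 2. In contrast, kcnk18 and runx3 were highest there, and pou4f3 and tlx3b lay in between. The endothelium sum (30.1 CPM, against 49.5 and 32.5 CPM) and motile cilia sum (4.87 CPM, against 13.7 and 7.10 CPM) of DRG replicate 2 were the lowest too. The endothelium sum was lowest through kdr alone (24.4 CPM, against 46.3 and 30.9 CPM), and tie1 and cldn5a were highest in replicate 2. Of the motile cilia genes, dnah5 and spag6 were lowest in replicate 2, rsph4a lay in between and foxj1b was highest. The part of these differences in the lower levels was not tested. Without DRG replicate 2, 21 members were higher in DRG and 12 were lower. Of the 16574 genes tested then, 4443 were higher and 4594 were lower.

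The 7 rows set apart held 1 higher call (27.8% of all genes tested) and 3 lower calls (28.1%). Higher in DRG was map1lc3b, whose product marks autophagosomes, named here after its values were seen. It had 602, 604 and 538 CPM in DRG, against 205, 192 and 217 CPM in spinal cord (log2 fold change 1.51 ± 0.14 SE, adjusted p = 7.1e-05). The kinase rows ranged from -1.35 (map4k5, adjusted p = 0.000122) to 0.23 (map2k1, not past the threshold), and dcxr, a sugar reductase, had -1.23 (adjusted p = 0.0724).

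A list of 58 further microtubule genes outside the rule gave 38 measured genes, of which 8 were higher in DRG (27.8% of all genes tested were), 15 were lower (28.1%) and the rest did not pass (median -0.10). With library sizes alone the numbers were 3 higher and 27 lower, against 1692 higher and 9190 lower of the 16112 genes tested. The largest increases were those of gas2l3 and gas2l1, which link microtubules to actin, at 36.4 ± 11.1 against 1.65 ± 0.177 CPM and 25.1 ± 9.74 against 5.54 ± 0.720 CPM, followed by the folding cofactor relative tbcelb, at 84.0 ± 16.3 against 27.2 ± 1.28 CPM (DRG against spinal cord, n = 3 per tissue, SD). Their log2 fold changes were 4.46, 2.18 and 1.63 (adjusted p = 1.06e-05, 0.000375 and 0.00012). The largest decreases among genes with at least 10 CPM in the higher tissue were those of nav2a and nav3, neuron navigators that bind plus ends, at 3.73 ± 0.634 against 47.2 ± 1.28 CPM and 23.5 ± 6.42 against 176 ± 13.7 CPM, and of matcap2, at 7.56 ± 0.885 against 34.0 ± 3.07 CPM (DRG against spinal cord, n = 3 per tissue, SD). Their log2 fold changes were -3.67, -2.91 and -2.17 (adjusted p = 3.66e-06, 2.64e-05 and 2.47e-05). Of the 6 measured genes listed under tubulin acetylation and detyrosination, 0 were higher in DRG (27.8% of all genes tested were) and 4 were lower (28.1%). These were matcap2, the acetyltransferase atat1 (-1.77), vash2 (-1.48) and svbp, the partner of the vasohibins (-0.59, adjusted p = 0.0427, with overlapping libraries; -0.62 and adjusted p = 0.0669 with the replicate block), the last 3 named after their values were seen. The other vasohibin, vash1, had 0.10 (adjusted p = 0.707) and did not pass. Nor did the remaining gene, sirt2 (0.24, adjusted p = 0.548). Of 13 measured nucleation and centrosome genes outside the rule, 3 were higher in DRG (haus1, haus2 and haus8 of the augmin complex) and 4 were lower (haus6 of the same complex, nedd1, pcnt and ninl), or 53.8% called against 55.9% of all genes tested. The libraries of haus1 overlapped between tissues (adjusted p = 0.0301), and haus2 did not pass with upper quartile factors (adjusted p = 0.0507). With library sizes alone the 3 augmin genes that were higher had 0.04, -0.15 and 0.27 (haus1, haus2 and haus8) and did not pass.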

How the data were processed

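RNA-seq was carried out on DRG and spinal cord of skate embryos. Per the labels' protocols, libraries were stranded, polyA-selected and paired-end. The authors deposited raw whole-number counts per gene, and the submitters' processing notes name Trimmomatic, HISAT2 2.2.0, SAMtools, featureCounts and edgeR 4.4; the strand setting, genome build and annotation are not given in the sources used here, so no coordinates or sequences are printed. All 59 members matched the RefSeq gene table of Leri_hhj_1, used for names and neighbours only; 12 share part of their span with another gene there, among them dclk2a, tbcd, map7d1a and map4k3a, so their counts are uncertain. The 24 rows that name no gene (1.02% to 2.04% of counts per library) were left out.

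The whole table was fitted with edgeR 4.0.16 in R 4.3.3 (filterByExpr, TMM, glmQLFit, glmQLFTest; tissue alone in the design; threshold 0.05 after Benjamini-Hochberg adjustment; common dispersion 0.0817). The SE is the size of the log2 fold change divided by the square root of F. Depth put 3 counts at 0.136 to 0.176 CPM in DRG and 0.0764 to 0.0888 CPM in spinal cord. The labels give pools 815, 816 and 818 to replicates 1, 2 and 3 of both tissues and list them as batches, so the numbers pair libraries by label; same-pool deviations from the tissue mean correlated at 0.48, -0.24 and -0.18 across genes. A single pool has 1 library per tissue and gives no test by itself; the replicate block uses the differences within all 3 pools, and its values hold only if the labelled numbers pair the libraries correctly. The members and lists were chosen with earlier results of these data known. Named are all tubulin, structural MAP, stathmin and doublecortin rows, in other role groups the 3 largest calls in each direction with at least 10 CPM, and members whose call changed under an alternative; outside the rule, the 3 largest in each direction. A planned comparison of isotype shares among alpha and beta tubulins could not be made with 1 such row; the tubb5 share is given instead. Alternatives were DESeq2 1.42.0 and limma 3.58.1 voom, other scalings and filters, the replicate block and leaving out each library. Figures used matplotlib 3.10.9. A single member enters the counts but is not reported here by itself.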

Additional observations from a re-analysis of the deposited data

How the results depend on the processing

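The counts of 20 members higher and 12 lower in DRG were 8 and 34 with library sizes alone. Of the 16112 genes tested, 1692 were higher and 9190 were lower at that setting. In an alternative chosen after seeing the data, libraries were scaled to the summed counts of the pan-neuronal markers. The members' counts were then 0 and 53 with edgeR (0 higher at an unadjusted p under 0.05 as well). With that scaling 358 of all genes tested were higher and 13982 were lower, and the median log2 fold change of all genes was -2.41. The pan-neuronal list sums to 16600 to 18300 CPM in DRG and 3100 to 3570 CPM in spinal cord, and neflb and uchl1 hold most of it. With TMM, 3 of its 6 genes were higher in DRG, 2 were lower and 1 did not pass (median log2 fold change -0.018). This scaling thus follows mainly neflb and uchl1, not the list as a whole. Under the other alternatives the members' counts were 19 to 23 higher and 12 to 15 lower, and 19 to 22 higher and 9 to 17 lower when 1 library was left out. Of the called members, 55.9% to 63.6% were higher under those alternatives, against 47.1% to 50.9% of all called genes. When 1 library was left out, these shares were 56.4% to 67.9% of the called members and 48.6% to 50.7% of all called genes. The replicate block gave 19 and 12, and the loss of tubgcp5 was its only change of a call among the members; the pool numbers it rests on may not pair the libraries correctly (same-pool correlations of 0.48, -0.24 and -0.18). With library sizes alone these log2 fold changes turned negative: katnal2 -0.0373, tbce -0.0941, tubgcp3 -0.27, tbcd -0.30, map6d1 -0.35, tbcb -0.37, map7d1a -0.37, tubgcp5 -0.42, clip2 -0.44, tubg1 -0.47, tbcc -0.59, map9 -0.61, tubgcp2 -0.62, tube1 -0.64, map2k1 -0.69, katnal1 -0.71, tubgcp4 -0.74 and clip3 -0.92. Of these, tbcc, map9, tubgcp2, katnal1, tubgcp4 and clip3 passed the threshold as lower at that setting (adjusted p = 0.00896 to 0.0408). With a value of 0.01, clip3 also turned with upper quartile factors (-0.0491), with no filter (-0.0166), with a minimum of 10 counts per library (-0.0719), with the replicate block (-0.00617) and with voom (-0.00505). The sign of katnal2 turned with the replicate block (-0.45) and voom (-0.74). Leaving out 1 library gave both signs for clip3 (-0.15 to 0.16), katnal2 (-3.04 to 2.32), clasp2 (-0.30 to 0.0493), mapre2 (-0.14 to 0.0643), tubd1 (-0.49 to 0.0452), map2k1 (-3.18e-05 to 0.37) and map2k5 (-0.0855 to 0.0506). The median log2 fold change of all genes tested was -0.99 with library sizes alone, against -0.04 with TMM. The cause of these changes was not tested. The mean tubb5 share in DRG was 267 CPM (unscaled) without mitochondrial genes in the total, and the members' share was then 1.67% in DRG and 1.123% in spinal cord. Leaving out 1 library ended calls only for members with a log2 fold change of 0.55 to 1.03 in size (tubgcp5, camsap3, map4k3a, ttll11 and ttll4), and 3 libraries per tissue limit what smaller differences could pass.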

Other observations

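Deviations of DRG libraries from their tissue mean were most like those of a spinal cord library of another pool for 2 of the 3 pools. Across 16112 genes, DRG replicate 1 correlated best with spinal cord replicate 1 (0.48), DRG replicate 2 with spinal cord replicate 3 (0.40) and DRG replicate 3 with spinal cord replicate 2 (0.48). These are descriptions across genes, which are not independent replicates. The pool numbers of 1 tissue may be crossed, in which case the replicate block pairs the wrong libraries; this was not tested.

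The summed level of 4 motile cilia markers was highest in replicate 1 (pool 815) of both tissues, at 13.7 CPM in DRG replicate 1 against 4.87 and 7.10 CPM in DRG replicates 2 and 3, and at 29.8 CPM in spinal cord replicate 1 against 21.2 and 22.1 CPM in spinal cord replicates 2 and 3. Most of the sum came from dnah5 and spag6, and foxj1b was lowest in replicate 1 among the DRG libraries (0.572 CPM, against 0.645 and 0.633 CPM in replicates 2 and 3). Members highest in replicate 1 of both tissues included katnal2, ttll4, agbl4, tbcb and tubgcp6, but not ttll2, ttll9 or agbl2. In DRG replicate 1 was the highest library for 18 of the 59 members (27.1% of all genes tested). In spinal cord it was the highest for 25 of the 59 (38.0% of all genes tested). The relation of these members to the cilia markers was not tested.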
